A study of Homo sapiens with 32 samples.

Results

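Ishikawa-S33Y cells were compared with the Ishikawa cells they are named after, both on vehicle, in 4 of the 32 libraries of a bulk RNA sequencing study of endometrial cancer cell lines. Members were taken by their labels: the vehicle libraries of the 2 lines, 2 for each. The labels give the CTNNB1 genotype of Ishikawa, an endometrial adenocarcinoma line, as wild type, and that of Ishikawa-S33Y as mutated. Both received DMSO alone for 24 h, and 1.5 M cells (M, 1000000) were plated in duplicate for each condition. Medium held 5 to 20% serum, and the labels do not say which line had which. Libraries were made from 350 ng of RNA for Ishikawa and 500 ng for Ishikawa-S33Y, so the amount of RNA and the line cannot be told apart. How the S33Y allele was brought into the cells, what drives it, and whether the line is 1 clone or a pool are not given in the sources used here. Nothing says that duplicates were separate cultures beyond their plating. The p-values and standard errors (SE) rest on the spread between duplicates over all 32 libraries, not these 4 alone, and this spread may be technical. The same 2 lines treated with paclitaxel, with SM08502 (an inhibitor of the CDC-like splicing kinases) or with both gave 4 further libraries each. These were used to see whether a line difference was also present in other libraries, and the lines SNGM and HEC265, both labelled as CTNNB1-mutated, gave a scale for it.

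CTNNB1 encodes beta-catenin, which links cadherins to the cytoskeleton and carries the canonical Wnt signal to the nucleus. A destruction complex built on APC and AXIN lets the kinases CK1 and GSK3 phosphorylate serines and a threonine near its amino end, after which it is ubiquitinated and degraded. S33Y replaces one of these serines by tyrosine, so that beta-catenin escapes degradation and acts with TCF and LEF proteins on target genes. Many of these targets, such as AXIN2, NKD1, RNF43 and ZNRF3, restrain the pathway in turn. Mutations of this part of CTNNB1 are frequent in endometrioid endometrial carcinoma.

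Depth on vehicle was 16.22 and 13.03 M reads in Ishikawa and 20.29 and 23.85 M in Ishikawa-S33Y. The lines also differed in the make-up of their libraries. Mitochondrially encoded genes took 6.81 and 7.95% of the reads of Ishikawa and 13.23 and 13.56% of those of Ishikawa-S33Y. A length score was formed for each library by subtracting the mean log2(CPM + 1) of 77 ribosomal protein genes from that of 52 long-transcript genes, where CPM is reads per M reads counted. It was -2.95 and -2.51 in Ishikawa and -1.51 and -1.66 in Ishikawa-S33Y, and its part in the line difference was not tested beyond the values below. With paclitaxel, 1 Ishikawa library (replicate 1) had a score of -1.77, near the -1.49 and -1.52 of Ishikawa-S33Y, and the other had -3.31. Medians against each of these single libraries are therefore given beside several gene groups, and counts with the score as a covariate beside others. With the covariate 1839 of all genes tested were higher and 4726 lower. Epithelial markers were present in both lines, with CDH1 (E-cadherin) at 248 and 271 CPM in Ishikawa and 264 and 277 CPM in Ishikawa-S33Y. Not all were as even as CDH1. By the test described below, 2 of the 11 listed markers were called higher in Ishikawa-S33Y, 5 lower and 4 not called. Their median log2 difference was -0.18. Among markers of other cell types, TYROBP and ELAVL4 had no reads in any of the 4 libraries, and FAP, PDGFRB, TEK and CDH5 stayed under 0.5 CPM. The lists they come from were not at 0 as a whole. The 8 leukocyte markers summed to 17.3 and 20.1 CPM in Ishikawa and 6.75 and 6.41 CPM in Ishikawa-S33Y, mostly from CD68, and the 5 endothelial markers to 2.9 and 3.15 against 10.2 and 7.46 CPM. The 6 neural markers summed to 63.6 and 77.1 CPM in Ishikawa and 97.4 and 96 CPM in Ishikawa-S33Y, mostly from MAP2 and CHGA.

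Of 17011 genes tested, 20.0% were called higher in Ishikawa-S33Y and 28.2% lower (limma, adjusted p under 0.05), and the median difference over all of them was -0.05 on the log2 scale. With 8208 genes called, a share of calls in a gene group is read here against these 2 percentages. Over 8472 genes with a mean log2(CPM + 1) of at least 4 on vehicle, the lines differed by a root mean square of 0.725 on the log2 scale, against 1.25 between Ishikawa and SNGM and 1.209 between Ishikawa and HEC265. Of these genes, 115 differed more than 4-fold between Ishikawa-S33Y and Ishikawa, and 658 and 536 between Ishikawa and the other lines. The same 2 lines with a drug gave levels that do not enter the vehicle difference itself. All 32 libraries share 1 estimate of spread per gene, however, so the choice of called genes is not independent of these libraries. Among the 8208 genes called on vehicle, 99.3% had the same sign with paclitaxel, 94.7% with SM08502 and 92.0% with both drugs. For 16.0% of the genes tested, the call was higher and the libraries of the lines did not overlap in any of the 4 treatments, and for 22.2% it was lower in the same way.

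CTNNB1 itself was lower in the mutant line. Its level was 357 and 313 CPM in Ishikawa and 214 and 207 CPM in Ishikawa-S33Y. The groups did not overlap, here or with any drug, and the log2 difference was -0.67 ± 0.12 (SE, n = 2 libraries per line, adjusted p = 9.09e-05). A gene count does not tell the mutant from the wild-type transcript, so this value is no check of the genotype. Of the 16 measured genes of beta-catenin and its destruction complex, 6 were called higher, 3 lower and 7 were not called, with a median of 0.25. Scaffold genes were among the higher ones: APC went from 41 and 59.3 to 113 and 110 CPM, and AMER1, which helps to hold the complex at the membrane, from 3.14 and 4.68 to 12.7 and 13.5 CPM. CSNK1D, a CK1 kinase, was higher by 0.83 on the log2 scale. PPP2CA, the catalytic subunit of phosphatase PP2A, was lower at 179 and 181 CPM against 349 and 362 CPM, and SIAH1, an E3 ligase that can degrade beta-catenin on its own route, was lower by a log2 difference of -0.90. With the length score as a covariate, 1 of the 16, AMER1, was higher and 5 were lower, and the median was -0.18. There APC had a log2 difference of 0.14 (limma, adjusted p = 0.534) and CSNK1D 0.25 (adjusted p = 0.121), so neither call held. The call of APC was also lost without replicate 1 of Ishikawa (0.90, adjusted p = 0.0593). Against the Ishikawa paclitaxel libraries of higher and lower score, the medians of the 16 were 0.09 and 0.63.

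Wnt feedback targets were higher on balance, but not as one block. Of 30 listed genes, 27 were tested, of which 13 were called higher, 5 lower and 9 not called, with a median log2 difference of 0.38. AXIN2, the target most often used to read the pathway, stood at 8.14 and 7.52 CPM in Ishikawa and 23.7 and 21.7 CPM in Ishikawa-S33Y. All Ishikawa values lay below all Ishikawa-S33Y values in each of the 4 treatments, and the log2 difference on vehicle was 1.42 ± 0.18 (SE, n = 2 per line, adjusted p = 1.22e-06). NKD1, an inhibitor of Dishevelled, went from 8.08 and 11.7 CPM to 24.7 and 23.3 CPM. CCND1 (cyclin D1) stood at 392 and 406 CPM against 1275 and 1211 CPM, a log2 difference of 1.64 ± 0.22 (adjusted p = 3.22e-06). The largest rise belonged to BMP4, a secreted growth factor, at 1.36 and 2.3 CPM against 27.1 and 25.7 CPM. TNFRSF19, a receptor of the TNF family, was at 4.44 and 2.61 CPM in Ishikawa and 15.7 and 12.6 CPM in Ishikawa-S33Y. Smaller differences were called for TCF7 (log2 difference 1.05), CD44 (0.96), the secreted Wnt deacylase NOTUM (0.87), the ephrin receptors EPHB2 (0.74) and EPHB3 (0.67), the receptor ligases ZNRF3 (0.61) and RNF43 (0.38), and ASCL2 (0.52), which was under 1 CPM in every library.

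**Figure D1:**
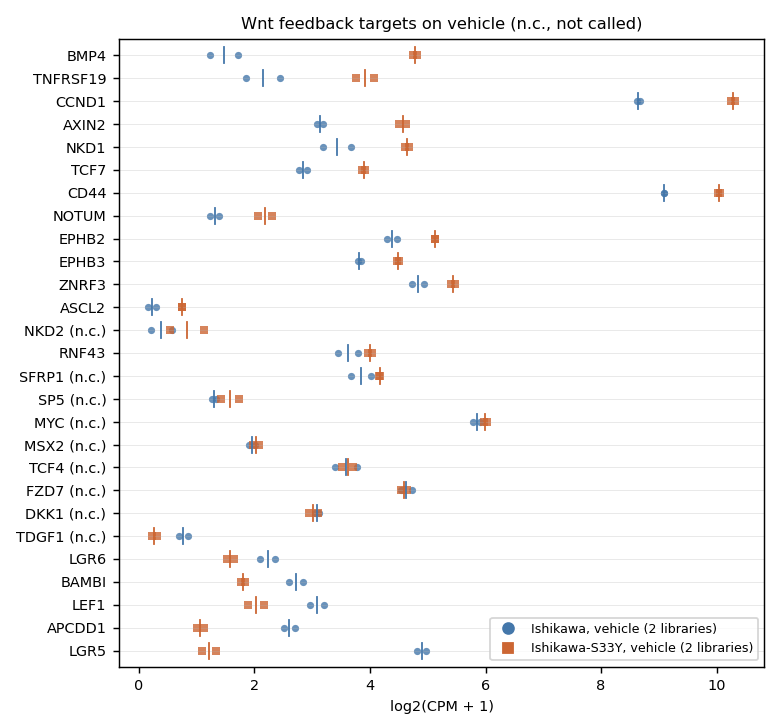
Level of the 27 tested Wnt feedback targets in each vehicle library, as log2(CPM + 1), with genes ordered by their line difference; points are libraries, short vertical lines are means of 2, and n.c. marks genes not called. BMP4, CCND1 and AXIN2 lie to the right in Ishikawa-S33Y, and LGR5 lies at 1.53 and 1.13 CPM there against 27.3 and 30.3 CPM in Ishikawa.

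LGR5, a receptor for R-spondins and a marker of Wnt-dependent stem cells, went the other way. It had 27.3 and 30.3 CPM in Ishikawa and 1.53 and 1.13 CPM in Ishikawa-S33Y, with no overlap in any treatment and a log2 difference of -3.68 ± 0.25 (adjusted p = 3.16e-10). APCDD1, a membrane inhibitor of Wnt, was also lower at 1.18 and 1.01 CPM against 4.69 and 5.53 CPM. The transcription factor LEF1 stood at 2.71 and 3.48 CPM against 6.78 and 8.21 CPM, and BAMBI and LGR6 had log2 differences of -0.92 and -0.65. MYC was not called on vehicle, at 54.3 and 59.1 CPM in Ishikawa and 64.3 and 61.6 CPM in Ishikawa-S33Y (adjusted p = 0.358). DKK1, FZD7, MSX2, TCF4, SP5, SFRP1, NKD2 and TDGF1 were not called either, with log2 differences from -0.50 for TDGF1 to 0.44 for NKD2. DKK4, WIF1 and FGF20 were too low to be tested.

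The number of Wnt targets called changed with the libraries. With the length score as a covariate, 5 were higher and 5 lower, and the list's median was 0.07. AXIN2, BMP4, CCND1, TNFRSF19 and CD44 were the 5 that stayed higher, with AXIN2 at 1.03. Without replicate 1 of Ishikawa, 7 were higher, and NKD1 (adjusted p = 0.0609), RNF43, ZNRF3, EPHB2, EPHB3 and ASCL2 were no longer called. Without any other library, 9 to 12 were higher. The calls of RNF43, ZNRF3, EPHB3 and ASCL2 were also lost without either library of Ishikawa-S33Y, that of EPHB3 without replicate 2 of Ishikawa, and that of LGR6 without any 1 of the 4. Against the Ishikawa paclitaxel library with the score of -1.77, the median over the list was 0.20, and against the other paclitaxel library it was 0.69, while the medians over all genes were -0.16 and 0.03. In the first of these libraries AXIN2 had 8.83 CPM, below the 21.1 and 23.1 CPM of Ishikawa-S33Y with paclitaxel. NKD1 had 19.9 CPM there, close to the 22.6 and 23.3 CPM of Ishikawa-S33Y. AXIN2 and NKD1 on vehicle were higher still in HEC265, at means of 145 and 103 CPM, and LGR5 was at or under 0.05 CPM in SNGM and HEC265.

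Among the Wnt ligands and R-spondins, 9 of 20 tested genes were called higher and 3 lower. WNT2B was among the genes that differed most, at 1.54 and 1.46 CPM in Ishikawa and 31.9 and 36.5 CPM in Ishikawa-S33Y (log2 difference 3.81 ± 0.45, adjusted p = 7.63e-07). It shares part of its span with ST7L in RefSeq, and reads of the pair can be told apart only as far as the authors' counting did so. The canonical ligand WNT3 went from 5.43 and 5.22 CPM to 13.9 and 14.5 CPM, and WNT3A, WNT10B and RSPO4 rose from under 1 CPM to between 2.66 and 4.73 CPM. RSPO3, a potentiator of Wnt signalling through LGR receptors, was lower at 0.887 and 0.587 CPM against 5.8 and 5.99 CPM. The receptor side was divided as well, with 6 of 17 tested receptor genes higher and 3 lower. The co-receptors LRP5 (22.5 and 29.3 against 84 and 79.4 CPM) and LRP6 (102 and 89.8 against 169 and 168 CPM) were higher. LGR4 was lower, at 79.8 and 74 CPM against 234 CPM in both Ishikawa libraries, and so was ROR1, a receptor for WNT5A (log2 difference -0.81).

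Of 17 nuclear partners of beta-catenin, 8 were called higher and 2 lower. TCF7L1 stood at 12.3 and 18.8 CPM in Ishikawa and 48.3 and 43.1 CPM in Ishikawa-S33Y, and TCF7L2 at 9.87 and 12.8 CPM against 24 and 22.4 CPM. BCL9L, which bridges beta-catenin to Pygopus, and the acetyltransferase CREBBP had log2 differences of 1.56 and 1.50. Both calls were lost without replicate 1 of Ishikawa (1.16 and 1.06), and that of BCL9L also without replicate 1 of Ishikawa-S33Y (1.49). The median over the 17 genes was 0.67, and it was -0.06 with the length score as a covariate, under which 1 was higher and 4 were lower. Against the 2 Ishikawa paclitaxel libraries it was 0.20 and 1.03. With the covariate TCF7L2 was still higher (0.44), whereas BCL9L fell to -0.06 (limma, adjusted p = 0.907, the highest over its alternatives). TCF7L1 (0.55, adjusted p = 0.0815) and CREBBP (0.13, adjusted p = 0.695) also lost their calls with it.

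Matrix genes were higher as a group. Of 34 extracellular matrix genes, 19 were called higher, 3 lower and 12 not called, with a median log2 difference of 0.65 against -0.05 for all genes. Type VI collagen led: COL6A1 had 63.7 and 103 CPM in Ishikawa and 1203 and 1182 CPM in Ishikawa-S33Y, a log2 difference of 3.87 ± 0.40 (adjusted p = 1.18e-07), and COL6A2 went from 25.6 and 43.8 to 249 and 245 CPM. COL1A1, the main chain of type I collagen, stood at 109 and 158 CPM against 1158 and 1131 CPM (log2 difference 3.11 ± 0.37, adjusted p = 6.96e-07). COL5A1 was at 6.72 and 13.1 CPM against 96.3 and 103 CPM. The basement membrane genes LAMA3 (73.1 and 87.1 against 666 and 712 CPM) and COL18A1 (38 and 54 against 363 and 348 CPM) were higher as well. None of these 6 genes overlapped between the lines in any treatment, and 3464 of all 17011 genes tested were higher in that way. The 3 lower genes, named after their values were seen, were SPARC (13.9 and 11.7 against 0.936 and 1.72 CPM), COL5A2 and LAMA4. The call of LAMA4 was lost without replicate 2 of either line (-0.71 in both cases).

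**Figure D2:**
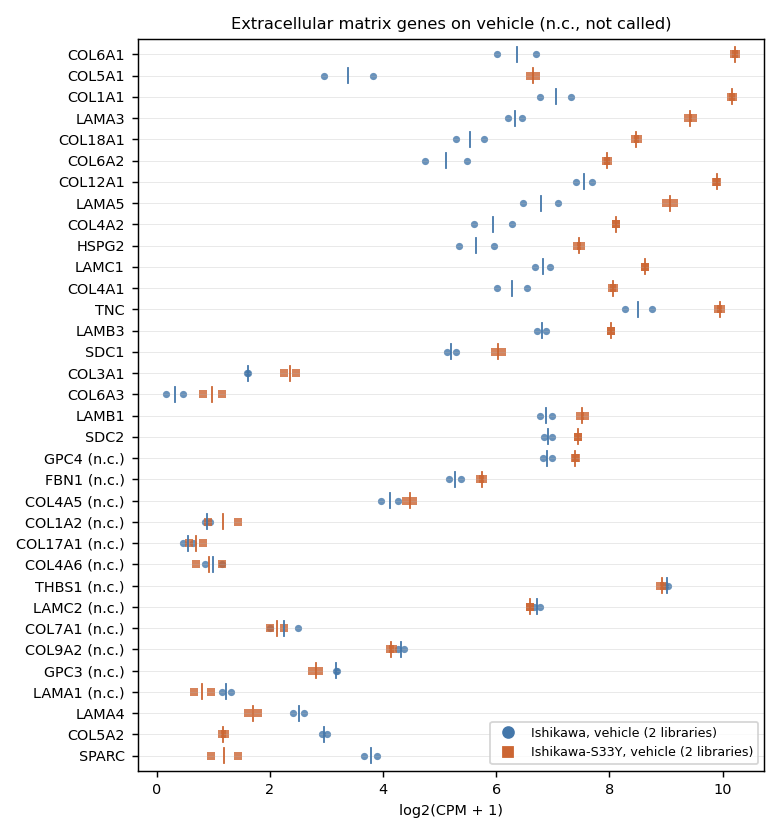
Level of 34 extracellular matrix genes in each vehicle library, as log2(CPM + 1), ordered by line difference; points are libraries, short vertical lines are means of 2, and n.c. marks genes not called. The upper 19 genes are higher in Ishikawa-S33Y, led by COL6A1 and COL5A1, and the lowest 3, SPARC, COL5A2 and LAMA4, are lower.

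Many of these genes have long transcripts, and the group's size changed with the length score. With the score as a covariate, 14 were higher and 6 lower, with a median of 0.26. Against the Ishikawa paclitaxel library of near-equal score the median was 0.57, and against the other it was 1.42. COL6A1 had 131 CPM and COL1A1 had 189 CPM in that first library, against 1144 and 1153 CPM for COL6A1 and 1050 and 1100 CPM for COL1A1 in Ishikawa-S33Y with paclitaxel. Of the fibroblast markers other than VIM and the collagens, DCN (decorin) stayed under 0.8 CPM, LUM under 0.4 CPM, and FAP under 0.1 CPM in the 4 libraries. The 10 listed markers summed to 496 and 547 CPM in Ishikawa and 2089 and 2092 CPM in Ishikawa-S33Y, mostly from COL1A1 and VIM.

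Enzymes and receptors of the matrix were mixed. Of 27 proteases and inhibitors, 10 were called higher and 9 lower, with a median of 0.26, and with the length score 7 were higher and 10 lower, with a median of -0.28. MMP2 (gelatinase A) is given by its 8 libraries per line: in Ishikawa the lowest was 0.912, the median 1.76 and the highest 2.49 CPM, and in Ishikawa-S33Y these were 56.7, 61 and 65.5 CPM. TIMP2, which inhibits MMP2 and also takes part in its activation, stood at 117 and 143 CPM against 574 and 558 CPM, and the membrane protease MMP15 at 10.1 and 12 CPM against 37.7 and 33 CPM. ADAMTS5, an aggrecanase, was lower by a log2 difference of -1.43. Among 14 integrins, 7 were higher and 3 lower. The collagen receptor subunit ITGA1 went from 16 and 17.8 to 115 and 113 CPM, ITGB3 was higher (1.61), and the epithelial subunit ITGB6 was lower (-1.47).

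Adhesion and mesenchymal genes were divided without the length score and, as were all genes, more often lower with it. Of 22 cadherin and junction genes, 6 were higher and 5 lower, and of 16 genes linked to epithelial-mesenchymal transition, 5 were higher and 7 lower, with medians of 0.07 and -0.02. With the score as a covariate these were 3 higher and 8 lower (median -0.29) and 3 higher and 7 lower (median -0.32). Without the score the junction counts were near the shares of all genes (20.0% higher, 28.2% lower). With it, 1839 of all genes were higher and 4726 lower (median -0.19). CDH6 (K-cadherin) was already abundant in Ishikawa at 600 and 646 CPM and reached 2222 and 2225 CPM in Ishikawa-S33Y. CDH2 (N-cadherin) was lower at 140 and 149 CPM against 269 and 268 CPM, and the tight junction gene CLDN7 at 81.1 and 89.7 CPM against 260 and 212 CPM. The desmosomal cadherin DSG2 was higher by 0.93. SNAI1, a repressor of E-cadherin, rose from 3.88 and 4.15 to 20.1 and 16.6 CPM, and VIM (vimentin) from 378 and 381 to 921 and 951 CPM. ACTA2, smooth muscle actin, was lower at 5.86 and 6.08 CPM against 55.6 and 45 CPM. ESRP1, an epithelial splicing factor, was lower too (-1.17), while CDH1 was not called (adjusted p = 0.839).

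Epithelial differentiation genes shifted in composition. KRT8 and KRT18, the partner keratins of simple epithelium, were higher, at 1616 and 1545 against 450 and 423 CPM and at 747 and 787 against 239 and 211 CPM. They were the 2 called higher of 15 tested keratins. Another 6 were lower, among them KRT17 (6.06 and 5.32 against 34.8 and 26.6 CPM), KRT7 (log2 difference -1.41) and the basal keratin KRT5 (-1.16). TP63, the master factor of stratified epithelium, was lower at 2.22 and 2.47 CPM against 15.4 and 19.3 CPM. PERP, a p63 target of desmosomes, was lower as well (-1.55).

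Of 22 lineage transcription factors of the endometrium, 9 were called higher and 4 lower, with a median of 0.47. With the length score as a covariate, 7 were higher and 7 lower, with a median of 0.08. PAX8, a factor of the Müllerian duct, had 134 and 179 CPM in Ishikawa and 514 and 472 CPM in Ishikawa-S33Y. The posterior HOX genes HOXA13 (3.64 and 4.07 against 20.1 and 21.3 CPM) and HOXA11 (1.79 and 1.77 against 8.53 and 7.71 CPM) were higher, and so were MSX1 (1.63) and FOXJ1, the factor of ciliated cells (28.9 and 33.9 against 139 and 125 CPM). ID3, an inhibitor of basic helix-loop-helix factors and a target of BMP signalling, was lower at 6.51 and 6.54 CPM against 75.8 and 70.1 CPM, while BMP4 was higher. Nuclear hormone receptors and their targets had 2 higher and 4 lower of 16, which is near the 20.0% and 28.2% of all genes. With the length score as a covariate 0 were higher and 7 lower, with a median of -0.61, against -0.19 for all genes. PGR, the progesterone receptor, was at 4.13 and 4.15 CPM in Ishikawa and 1.33 and 1.01 CPM in Ishikawa-S33Y, and PPARG and NR3C2 were lower by -1.41 and -0.87. Secretory products were lower more often than higher, with 7 of 13 lower and 2 higher. SCGB2A1, a secretoglobin, went from 132 and 117 to 24.9 and 27 CPM, MUC16 (the CA125 antigen) from 13.9 and 19.3 to 4.68 and 3.61 CPM, and LTF and LCN2 had log2 differences of -1.50 and -1.20.

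A set of genes of the early embryo was expressed in Ishikawa and nearly lost from Ishikawa-S33Y. These genes are normally switched on when the human embryo first activates its own genome, under the transcription factor DUX4, and are silent in most adult cells. Of 44 such genes in the table, 30 passed the filter on low values. Of these, 26 were called lower, 1 higher and 3 not, with a median log2 difference of -1.40. The filter passed 23 of the 30 through Ishikawa libraries alone, so these counts describe genes that Ishikawa expresses. KHDC1L had 41.9 and 36.6 CPM in Ishikawa and 0.591 and 0.21 CPM in Ishikawa-S33Y (log2 difference -4.86 ± 0.22, adjusted p = 4.44e-13). TRIM49 stood at 55.6 and 49.4 CPM against 1.28 and 1.09 CPM (-4.61 ± 0.13, adjusted p = 1.96e-16), TRIM43 at 44.6 and 37.9 CPM against 2.02 and 1.89 CPM, and TRIM43B at 31.3 and 25.3 CPM against 1.33 and 1.01 CPM. RFPL4B had 11.1 and 8.83 CPM in Ishikawa and at most 0.0419 CPM in Ishikawa-S33Y. A pair of factors of the cleavage embryo, named after their values were seen, were also lower: ZSCAN4 at 0.69 and 0.335 CPM against 5.92 and 5.68 CPM, and LEUTX at 0.148 and 0.126 CPM against 1.91 and 2 CPM.

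DUX4 itself was too low to be tested. It had 2 and 3 reads in the Ishikawa libraries and 0 and 4 reads in those of Ishikawa-S33Y, a number that cannot show a difference at this depth. The exception in the list was SLC34A2, a phosphate transporter also made by Müllerian and lung epithelium, at 259 and 295 CPM in Ishikawa and 1282 and 1240 CPM in Ishikawa-S33Y. Without it, the list summed to 344 and 309 CPM in Ishikawa, to 38.6 and 36.4 CPM in Ishikawa-S33Y, and to between 1.78 and 4.45 CPM in the vehicle libraries of SNGM and HEC265. All but 3 of the 44 genes were under 1 CPM in the 4 vehicle libraries of those lines. The lower level was seen in all treatments, with list medians of -1.60 with paclitaxel, -1.08 with SM08502 and -1.37 with both. It moved little with the length score, with 24 lower under the covariate and medians of -1.46 and -1.74 against the 2 Ishikawa paclitaxel libraries. TRIM49, TRIM43 and RFPL4 copies are nearly identical to each other, so how reads were split among copies is uncertain.

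Promoters of part of this set hold the sequence that DUX4 binds. In RefSeq promoter windows (GRCh38.p14, from 250 bases before to 50 bases after the start), 38 of the genes had a window, and 6 of them, 15.8%, held the 11-base DUX4 motif on either strand. In all 27305 genes with a window the share was 0.300%. The 6 stretches below are shown because they carry that match, which stands in capitals with 20 bases on each side, read 5′ to 3′ on the strand of the gene.
TRIM49B (chr11:49028654-49028704, plus strand): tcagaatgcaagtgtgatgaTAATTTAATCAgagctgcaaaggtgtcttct
TRIM48 (chr11:55261989-55262039, plus strand): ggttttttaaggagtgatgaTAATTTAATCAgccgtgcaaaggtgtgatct
TRIM51 (chr11:55883058-55883108, plus strand): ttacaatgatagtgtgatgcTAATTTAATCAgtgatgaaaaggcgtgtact
TRIM49D1 (chr11:89920572-89920622, minus strand): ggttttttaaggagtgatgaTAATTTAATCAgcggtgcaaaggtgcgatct
TRIM49D2 (chr11:89923850-89923900, plus strand): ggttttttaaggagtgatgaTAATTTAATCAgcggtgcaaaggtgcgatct
RFPL4A (chr19:55759008-55759058, plus strand): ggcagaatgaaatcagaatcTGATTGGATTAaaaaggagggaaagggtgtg

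The TRIM genes share the same 11 letters within related flanks on chromosome 11, so they are copies of a common promoter rather than independent cases, and RFPL4A carries the motif on the opposite strand. All 6 genes were called lower, from -0.53 for TRIM51 to -4.42 for TRIM49B, and all but TRIM51 were so with the length score. Since 23 of the 30 tested genes of this list passed the filter through Ishikawa libraries alone, nothing is read from this shared direction. The call of TRIM51, which had at most 0.555 CPM, was also lost without replicate 1 of either line (-0.49 and -0.48). Of the 82 genes with the motif in their window, 38 were tested, of which 24 were called lower and 4 higher. The filter passed 14 of those 24 through Ishikawa libraries alone, which favours a lower value in Ishikawa-S33Y, so nothing is read from the count. Outside the list the lower genes included SSU72P8, a member of a family of SSU72 copies, at a log2 difference of -3.53, and TLL1 at -2.84, both named after their values were seen. The motif CTTTGAT, a core bound by TCF proteins (both strands), was in 3.18% of all windows and in 1 of the 18 Wnt feedback targets with a window, SP5, which was not called. Most known TCF sites lie outside such short windows, and a match is a description of the letters only.

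Among other genes normally confined to germ cells, 10 of 18 tested cancer-testis genes were lower and 2 higher. With the length score as a covariate 7 were lower and 2 higher. How many of the 18 passed the filter through Ishikawa libraries alone was not counted. PAGE5 had 8.94 and 5.22 CPM in Ishikawa and no reads in either Ishikawa-S33Y library, which is at least 107-fold lower against a floor of 3 reads over both libraries. MAGEA1 stood at 4.58 and 4.61 CPM against 18.6 and 16.7 CPM, and MAGEC1 was lower by a log2 difference of -1.56. TEX15, a meiotic gene, was higher at 9.81 and 8.47 CPM against 0.802 and 0.691 CPM.

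Histone genes were almost all lower. Replication-dependent histones are made in S phase from clustered genes, mostly on chromosome 6, whose mRNAs end in a stem-loop in place of a poly(A) tail. Of 48 tested, 42 were called lower, none higher and 6 not called, with a median log2 difference of -1.25. Without overlap in the 4 treatments, 41 of the 48 were lower, against 4369 of all 17011 genes tested. In HIST1H3J the level fell from 98.7 and 89 CPM to 7.39 and 6.41 CPM, and in HIST1H2AI from 252 and 243 CPM to 38.2 and 34.1 CPM. HIST1H3D fell furthest of the reported genes: it had 101 and 95.7 CPM in Ishikawa and no read in any of the 8 Ishikawa-S33Y libraries, which on vehicle is at least 1452-fold lower against the floor of 3 reads. It had no reads in the vehicle libraries of SNGM and HEC265 either, whereas HIST1H3J had means of 43.8 and 13.4 CPM there. Histone copies are nearly identical, and HIST1H3D overlaps another histone gene, so the split of reads among them is uncertain. The list's median moved with the length score, to -0.67 with 30 lower under the covariate, and was -1.04 and -1.77 against the 2 Ishikawa paclitaxel libraries.

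**Figure D3:**
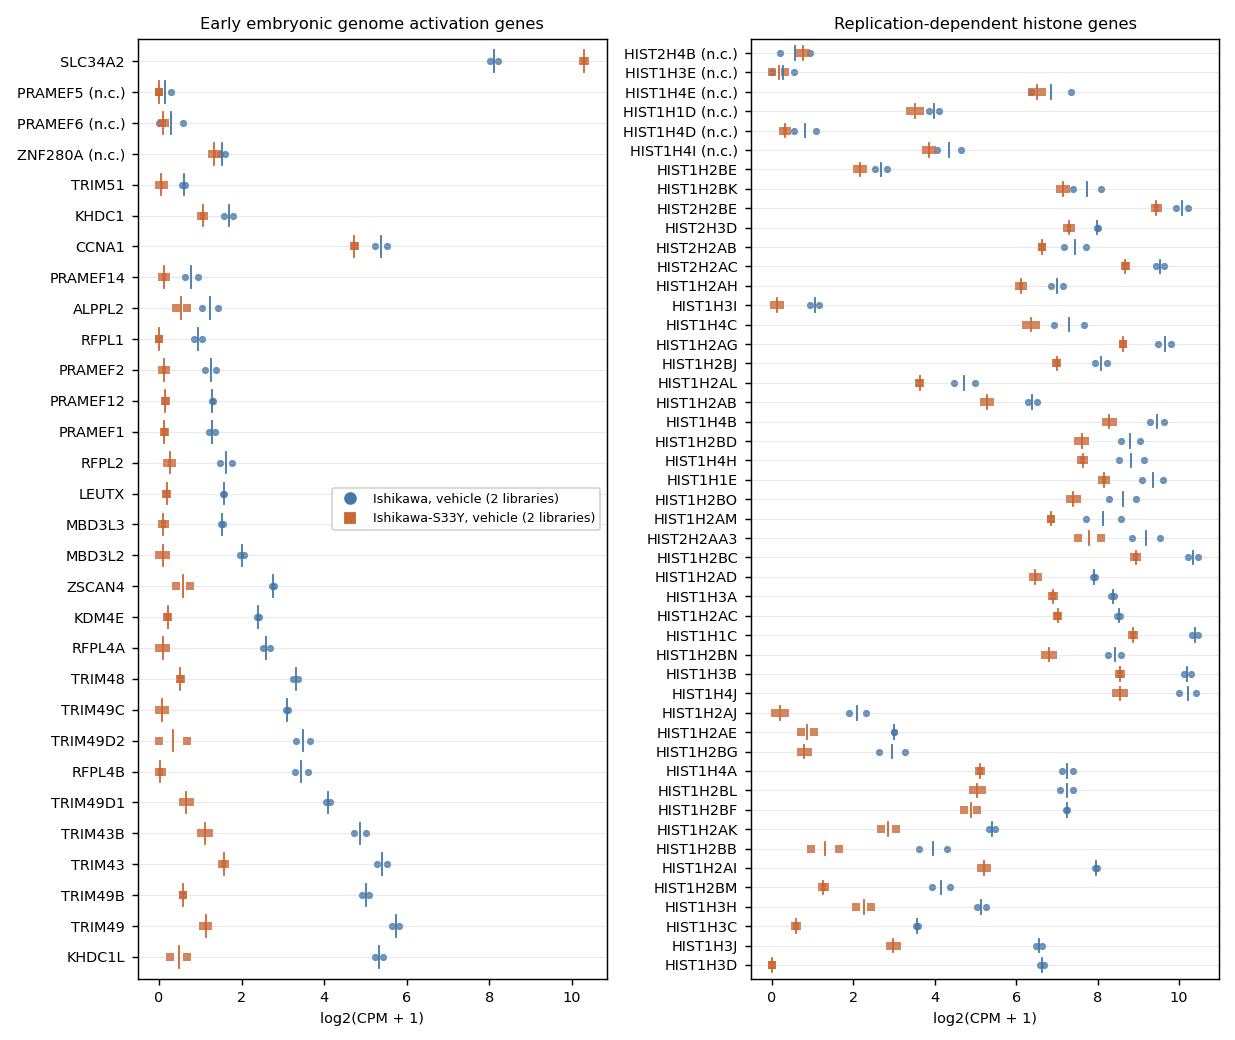
Level in each vehicle library, as log2(CPM + 1), of 30 tested genes of early embryonic genome activation (left) and 48 tested replication-dependent histone genes (right), ordered by line difference; points are libraries, short vertical lines are means of 2, and n.c. marks genes not called. All but SLC34A2 on the left lie at or below Ishikawa in Ishikawa-S33Y by their means, and HIST1H3D has no read in Ishikawa-S33Y.

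Chromosome 6 stood apart. Its 866 tested genes, which include 38 replication-dependent histones, had a median log2 difference of -0.40, the lowest of the 23 chromosomes. Of them, 47.0% were called lower and 9.1% higher. The other chromosomes had a median of -0.03 over 15273 genes. Between 25 and 29 Mb, around the main histone cluster, 25 of 41 genes other than histones were lower and 0 were higher, with a median of -0.56. Windows of 10 Mb, 271 in all, were formed without histones. Their 3 lowest medians lay on other chromosomes: -0.65 on chromosome 2 from 0 to 10 Mb, -0.64 on chromosome 7 from 10 to 20 Mb and -0.63 on chromosome 4 from 90 to 100 Mb. The next was on chromosome 6, at -0.62 from 10 to 20 Mb. Other windows of chromosome 6 were at -0.53 from 50 to 60 Mb and -0.51 from 20 to 30 Mb, and its highest was -0.0 from 160 to 170 Mb. The middle of all window medians was -0.1. The window of chromosome 20 from 60 Mb to its end had the highest, 0.70 over 55 genes, of which 37 were higher and 2 lower. Its medians with paclitaxel, SM08502 and both drugs were 0.66, 0.74 and 0.67, and it was 0.30 with the length score as a covariate, when the median of all genes was -0.19. Among its genes, named after their values were seen, were COL9A3 (4.4 CPM on average in Ishikawa and 45.7 CPM in Ishikawa-S33Y), EEF1A2 (18.8 and 134 CPM) and LAMA5 (112 and 537 CPM). Positions are those of RefSeq, and DNA copy number was not measured.

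**Figure D4:**
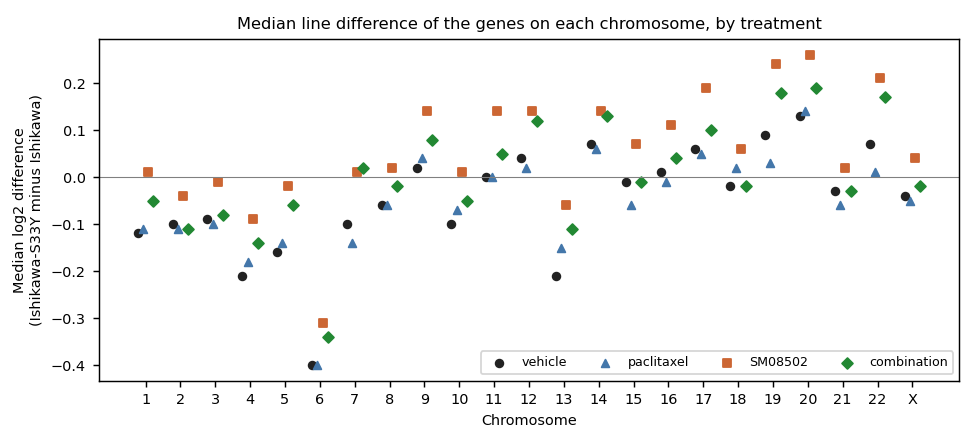
Median log2 difference (Ishikawa-S33Y minus Ishikawa) of the tested genes on each chromosome, histones included, with 1 symbol per treatment. Chromosome 6 lies lowest in each treatment, from -0.40 to -0.31, and chromosome 20 has the highest median on vehicle, 0.13.

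Proliferation genes did not move as a block. Of 28 cell cycle and mitosis genes, 5 were higher and 13 lower, with a median of -0.34. MKI67, the antigen of the Ki-67 stain, was much higher at 578 and 571 CPM against 53.9 and 68.6 CPM, and CCND2 (cyclin D2) rose with CCND1, from 14.5 and 13.9 to 78.7 and 82.4 CPM. CDK1 was lower at 99.2 and 96 CPM against 218 and 227 CPM, and CCNE2 (cyclin E2) by a log2 difference of -1.51. CDKN1A (p21) stood at 17.1 and 14.6 CPM against 74.4 and 71.9 CPM. MKI67 has a long transcript and varied with the score within Ishikawa: it was at 276 CPM in the paclitaxel library with a score of -1.77 and 53.2 CPM in the other. Ishikawa-S33Y had 592 and 605 CPM with paclitaxel, above both.

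Chromatin genes moved in both directions. Among 15 writers and erasers of DNA methylation and Polycomb marks, 4 were higher and 4 lower, and with the length score 2 were higher and 5 lower. Over all genes 20.0% were higher and 28.2% lower without the score, so the first counts are near the background. EZH2, the Polycomb methyltransferase, stood at 33 and 30.5 CPM against 94.9 and 97 CPM, and EZH1 was lower by -0.76, whereas the demethylating dioxygenases TET3 (41.8 and 62.7 against 186 and 173 CPM) and TET1 (0.84) were higher. The growth factor gene IGF2, which is imprinted, was higher at 43.3 and 43.1 CPM against 3.33 and 11.1 CPM.

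Splicing and tubulin genes matter here because the study treated these lines with a splicing kinase inhibitor and a taxane. Of 20 CLK, DYRK, SRPK and SR protein genes, 13 were lower and 1 higher on vehicle, against 28.2% and 20.0% of all genes, and 13 were lower with the length score as well. SRSF7 was at 81.4 and 75.5 CPM against 157 and 158 CPM, SRSF3 at 224 and 215 CPM against 372 and 363 CPM, and the kinase gene SRPK1 at 77.1 and 77.4 CPM against 129 and 125 CPM. Of 19 taxane response genes, 4 were higher and 8 lower, against 20.0% and 28.2% of all genes, and with the length score 3 were higher and 10 lower. TUBB4A, a beta-tubulin isotype, went from 4.93 and 8.98 to 35.7 and 33 CPM. STMN1, which destabilises microtubules, and the alpha-tubulin gene TUBA1C had log2 differences of -0.98 and -0.87.

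Growth factor receptors and ligands were higher in 14 of 26 tested genes and lower in 2, with a median of 0.58. With the length score as a covariate 10 were higher and 4 lower, with a median of 0.26, and against the 2 Ishikawa paclitaxel libraries the medians were 0.58 and 1.21. ERBB4 stood at 6.29 and 6.45 CPM in Ishikawa and 53.2 and 52 CPM in Ishikawa-S33Y (log2 difference 2.86 ± 0.14, adjusted p = 8.07e-13). FGFR3 went from 5.92 and 7.37 to 32.7 and 28.6 CPM, FGFR2 from 6.47 and 7.83 to 30.9 and 29.1 CPM, and EGFR from 39.2 and 54.7 to 150 and 144 CPM. IGFBP3, which binds insulin-like growth factors, was at 1044 and 1019 CPM against 314 and 276 CPM, and the EGFR ligand AREG was lower by -1.56. PIK3R1, the regulatory subunit of PI3K and a gene often mutated in endometrial cancer, was lower at 62 and 62.4 CPM against 130 and 136 CPM. Of 28 Notch, Hedgehog and TGF-beta pathway genes, 13 were higher and 5 lower, with a median of 0.48. With the length score as a covariate 6 were higher and 6 lower, with a median of 0.14, and against the 2 Ishikawa paclitaxel libraries the medians were 0.49 and 1.03. HEY1, a Notch target, was at 1.68 and 1.76 CPM against 39.6 and 45 CPM, while the Notch ligand JAG1 was higher (1.37). PTCH1, receptor and target of Hedgehog, went from 8.88 and 10.8 to 48 and 50.7 CPM, TGFBR2 was higher by 1.88, and GREM1, a BMP antagonist, was lower by -1.97.

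Of 26 interferon-stimulated genes, 5 were higher and 10 lower, against 20.0% and 28.2% of all genes. With the length score as a covariate 4 were higher and 8 lower. ISG15 stood at 4.88 and 5.41 CPM against 19.5 and 21.5 CPM, and the RNA sensor DDX58 at 10.8 and 11.4 CPM against 31.6 and 37.5 CPM. Of 15 tested antigen presentation genes, 3 were higher and 4 lower, close to the shares of all genes, with a median of -0.01. Among them B2M, the light chain of HLA class I, stood at 171 and 177 CPM against 380 and 358 CPM, while the peptide transporter gene TAP1 was higher by 0.91. Of 13 mitochondrially encoded genes, 3 were higher, among them MT-ND5 at 16277 and 16462 CPM against 4326 and 6290 CPM, a call lost with the length score (adjusted p = 0.421) and without replicate 1 of Ishikawa (0.117) or either library of Ishikawa-S33Y (0.0617 and 0.0632). Among 52 genes with long transcripts, which enter the score, 32 were higher and 2 lower, such as AHNAK at 791 and 761 CPM against 97.6 and 111 CPM and LRP1 at 133 and 123 CPM against 17.9 and 25.6 CPM. With the score as a covariate 13 of the 52 were higher.

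The genes that differed most over all 4 treatments were of varied function. On the higher side, beside WNT2B, MMP2 and COL6A1, were the neuronal nitric oxide synthase NOS1, the glycosyltransferase MGAT3, the epidermal protein FLG, the scavenger receptor SCARA3, the matrix protein HMCN1, the collagen crosslinking enzyme LOXL4 and HOXC10. Over 8 libraries per line, SCARA3 ran from 0.547 to 2.15 CPM in Ishikawa and from 30.6 to 43.7 CPM in Ishikawa-S33Y, and HMCN1 from 1.95 to 4.03 CPM and from 29.5 to 60.5 CPM. FLG reached at most 0.182 CPM in Ishikawa and was between 2.34 and 21.1 CPM in Ishikawa-S33Y. On the lower side, beside KHDC1L, TRIM49, TRIM49B, HIST1H3D and HEY1, PLXDC2 ran from 24.9 to 78.6 CPM in Ishikawa and from 1.59 to 3.65 CPM in Ishikawa-S33Y. The other 4 of the 10 largest falls were loci without a RefSeq symbol. Among genes of at least 50 CPM in each vehicle library, ZNF354B, a zinc finger gene, was higher with a wide spread (291 and 119 against 1061 and 2057 CPM). The lower ones were GDA, a guanine deaminase (316 and 311 against 69.9 and 65.9 CPM), the transmembrane protein gene TMTC1 (-1.94), the sialidase NEU1 (-1.91), the zinc transporter SLC39A8 (876 and 813 against 240 and 240 CPM), and 1 locus without a symbol. Genes with at most 3 reads in every Ishikawa-S33Y library and at least 5 CPM in every Ishikawa library were HIST1H3D, PAGE5, RFPL4B and TRIM49C, and there were 0 of the reverse kind.

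**Figure D5:**
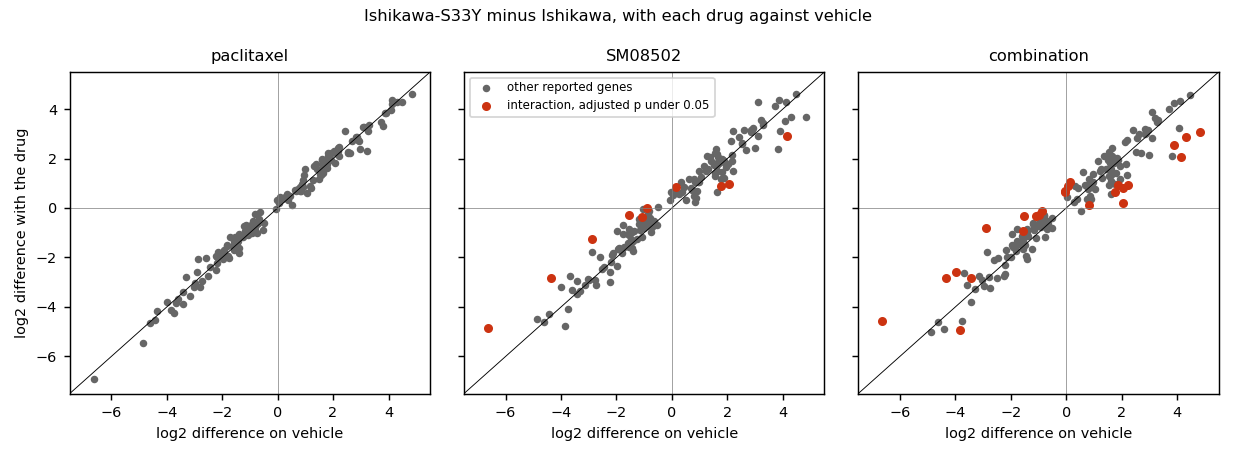
Log2 difference (Ishikawa-S33Y minus Ishikawa) with each drug against that on vehicle for 163 reported genes; the diagonal marks equal differences, and red points have an interaction with an adjusted p under 0.05. With paclitaxel the points lie along the diagonal and 0 are red, and with both drugs more lie off it.

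Calls with a drug used the same estimate of spread per gene as those on vehicle, so they are not independent tests. With paclitaxel, 83.8% of the 8208 vehicle calls were called again in the same direction and 1 gene was called in the opposite one. With SM08502 these were 76.8% and 46 genes, and with both drugs 74.5% and 143 genes. Of the 2505 calls of at least 2-fold, 96.6%, 94.0% and 89.5% were called again in the same direction. The test of the change itself called 0 genes for paclitaxel, 413 for SM08502 and 1792 for the combination. Drug doses differed between the lines (paclitaxel 11 nM for Ishikawa and 6 nM for Ishikawa-S33Y, SM08502 80 and 85 nM), and 1 of the Ishikawa-S33Y libraries with both drugs had only 2.99 M reads, so these figures describe the libraries as treated. The medians of the leading groups had the same sign with each drug: the matrix list had medians of 0.87, 0.93 and 0.98 with paclitaxel, SM08502 and both, the histone list -1.35, -1.53 and -1.83, and the Wnt feedback list 0.44, 0.66 and 0.70.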

How the data were processed

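Bulk RNA was sequenced in 32 libraries, and 4 of them form the comparison. Per the labels' protocols, RNA was purified with RNeasy Plus kits, depleted of ribosomal RNA with QIAseq FastSelect, made into libraries with KAPA mRNA HyperPrep and sequenced on a NovaSeq. The submitters' processing notes name bcl2fastq, STAR, kallisto and GRCh38, without their roles or versions, and the strand of counting is not given in the sources used here. The authors deposited log10(CPM + 1) for 35238 genes, a unit checked on the values. These were taken back to CPM, which sums to 1000000 in each library, and low values were whole multiples of 1 read, so reads per library and per gene were recovered (100% of values up to 1000 reads within 0.1).

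Values were tested as log2(CPM + 1), which understates the difference of low genes. In R 4.3.3, limma 3.58.1 fitted all 32 libraries with a mean per group (16 groups), moderated variances and an intensity trend, with 16 residual degrees of freedom. Genes above 1 CPM in at least 2 libraries were kept (17011). Tests were two-sided, Benjamini-Hochberg adjusted over all genes tested and called at an adjusted p under 0.05. In simulated data for this comparison, with 17011 genes tested, changes of 1.5, 2 and 4-fold were recovered in 42%, 84% and 98% of cases. The changes were placed only in genes with a log2(CPM + 1) of at least 3 on vehicle, and the simulated spread was capped. Recovery in lower or more variable genes was not simulated. Floors are 3 reads over both libraries of a group, for counting error only.

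The members, the 31 gene lists and the tests were chosen with earlier results of these data known. Named genes are CTNNB1, every Wnt feedback target, up to 6 called genes per list with the largest difference, the 10 largest non-overlapping differences each way over the 4 treatments, the 5 largest each way among genes of at least 50 CPM, and genes present in 1 line only. Of the symbols, 27325 matched RefSeq (GRCh38.p14), which gave positions and promoters and may differ from the authors' annotation. Of 215 placed genes under this rule, 127 overlap another gene there. The chromosome windows and the promoter search were added after the data were seen. Some listed genes are not reported here.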

Additional observations from a re-analysis of the deposited data

Results flagged for a closer look

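Some line differences changed with a drug by the interaction term of the limma model (value: log2 line difference with the drug minus that on vehicle). Of the 163 reported genes, 0 did so with paclitaxel, 10 with SM08502 and 25 with both drugs. All of these interactions share the vehicle libraries, and the combination includes the library of 2.99 M reads.

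Among Wnt targets, the line difference of APCDD1, -1.54 on vehicle, was smaller with SM08502 (1.26, limma interaction, adjusted p = 0.00272) and with both drugs (1.23). MYC, not called on vehicle, moved upward in Ishikawa-S33Y relative to Ishikawa with SM08502 (0.72) and both drugs (0.9, adjusted p = 0.00352). DKK1 (0.76), MSX2 (0.82) and FZD7 (0.69) did so with both drugs.

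Of the reported histone genes, 2 changed. The value was 1.79 for HIST1H3D with SM08502 and 2.07 with both drugs, and 1.66 and 2.07 for HIST1H3H. HIST1H3D had no reads in any library of Ishikawa-S33Y, so its values follow the level in Ishikawa alone. The median of all 48 tested histone genes went the other way, from -1.25 on vehicle to -1.53 with SM08502 and -1.83 with both drugs. Of the embryonic genes, TRIM43 had -1.12 and RFPL4B 0.61 with both drugs.

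In adhesion and epithelial genes, CDH2 had 0.9 with SM08502 and 0.76 with both drugs, KRT18 had -0.86 and -1.1, and with both drugs KRT8 had -0.95, PERP 0.62 and FOXJ1 -1.24. The difference of the receptor FGFR3 shrank by -1.09 with SM08502 and -1.85 with both drugs (adjusted p = 0.000169), and PIK3R1 had 0.74 and 0.77. With both drugs PPP2CA had 0.69, TET1 -0.7, HEY1 1.4 and PTCH1 -1.28.

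Among the largest differences, FLG had -1.21 and PLXDC2 1.53 with SM08502. With both drugs the values were -2.05 for FLG, 1.51 for PLXDC2, -1.74 for NOS1, -1.44 for MGAT3 and -1.34 for LOXL4, each toward a smaller line difference.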

How the results depend on the processing

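The vehicle comparison was repeated under 17 alternatives, of which 1, a replicate block with crossed numbers, was chosen after seeing the data. Between 6357 and 9541 genes were called, against 8208, and 136 of the 154 reported genes called on vehicle kept direction and call under every alternative in which they were tested. With the length score as a covariate, 1839 genes were called higher, against 3405, and 28.0% of calls were higher, against 41.5%. The median of all genes moved from -0.05 to -0.19, 5 Wnt feedback targets were called higher, against 13, and 15 reported genes lost their call. Values that changed sign there were ZNRF3 (-0.05), BCL9L (-0.06), MYC (-0.16), SFRP1 (-0.15), MSX2 (-0.28) and TCF4 (-0.42), of which ZNRF3 and BCL9L were called as reported. The cause was not tested.

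Quantile normalization gave -0.02 for MSX2 and 0.02 for FZD7, and CPM without PLCG2, RIMBP3C and mitochondrial genes 0.02 for FZD7, none of them called. A stricter filter, a mean log2(CPM + 1) of at least 2 over all libraries, left 2 of the embryonic genes to test, since SNGM and HEC265 lack them, and 1 was called lower. Leaving out 1 library at a time gave 7 to 12 Wnt targets higher, and ranges of -0.14 to 0.01 for DKK1, -0.16 to 0.23 for TCF4 and -0.13 to 0.05 for FZD7.

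The replicate numbers did not pair the lines: deviations of same-numbered libraries correlated at -0.304 on vehicle and at 0.12, 0.164 and 0.055 with the drugs over 8857 genes. The replicate block called 8287 genes and changed the call of no reported gene. With the numbers crossed in Ishikawa the count was 8222. Voom on recovered reads called 8785 genes, 3465 of them at least 2-fold, against 2505. Ishikawa replicates on vehicle differed more (root mean square log2 difference 0.2272) than those of Ishikawa-S33Y (0.1043).

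With 2 libraries per line, changes under 2-fold are often missed, and below about 1 CPM a difference rests on few reads.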
